A study of Sus scrofa with 6 samples.

Results

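A set of 10 genes that bring cholesterol into a steroid-producing cell and turn it into progesterone was followed in the ovary and uterus of sows. The uterine tissue was labelled myometrium, the smooth muscle wall of the uterus. The genes are SCARB1, NPC1, NPC2, STARD3, STAR, CYP11A1, FDX1, FDXR, POR and HSD3B1. All probe sets whose only gene symbol on the platform was that of 1 of these 10 genes were taken, which gave 17 of the 10069 probe sets with a single symbol, and 10 of 6765 genes. The rule used gene names and no measured value, but the genes were chosen with earlier results of these data known. There were 6 arrays, 1 for each of ovary and labelled myometrium at the non-pregnant, early pregnant and late pregnant stages. The design counted 9 pigs, 3 per stage, but the labels do not say if the RNA on an array came from a single sow or from several. The labels used here name no breed, age or day of gestation.

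Progesterone keeps the uterus receptive and quiet during pregnancy, and in the pig the corpora lutea of the ovary are its main source throughout. Cholesterol reaches a luteal cell on lipoproteins, passes through the lysosome when taken up in particles, and is carried to the inner mitochondrial membrane. There it is cut to pregnenolone by an enzyme that needs electrons from a short transfer chain, and a dehydrogenase then makes progesterone from pregnenolone.

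In ovary all of these genes read above background at every stage, and between stages the signals of STAR, CYP11A1 and FDX1 differed little. On the arrays labelled myometrium the picture depended on the stage. STAR, CYP11A1 and HSD3B1 lay below that floor on the non-pregnant array and well above it on both pregnant arrays. SCARB1 and FDXR were higher in ovary by the test, whereas NPC1, NPC2 and STARD3 overlapped between the tissues.

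Values are MAS5 signals, an arbitrary linear scale on which each array had been scaled by the authors to a common level. With the top and bottom 2% of signals left out, each array had a mean of 500.1. Signals under 81.7, the 40th percentile of all signals, are here called below the floor and were raised to it before a ratio was taken, so that a ratio against such an array is a lower bound. Between 57.4% and 61.6% of the probe sets lay above the floor on an array. For the 11733 probe sets that exceeded it throughout, r was 0.953 to 0.967 among the ovary arrays and 0.835 to 0.928 among the arrays labelled myometrium, as a description across probe sets. RNA quality was read from 2 sets of GAPDH controls as signal at the 3' end over that at the 5' end. It was 1.51 to 2.33 by one set and 3.07 to 4.90 by the other in ovary, and 1.52 to 1.70 and 2.74 to 3.44 in labelled myometrium, highest by both on the non-pregnant ovary array. The actin controls did not share this order, with 0.340 to 0.636 and 2.56 to 3.38 in ovary and 0.195 to 0.328 and 2.64 to 3.49 in labelled myometrium.

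The labels were checked against marker genes of the cells each tissue could hold. Of 13 tested luteal and granulosa cell genes, 11 were higher in ovary, 0 were lower and 2 did not pass, with a median log2 difference of 3.38. Smooth muscle genes did not mark the arrays labelled myometrium, since 0 of 13 passed by limma, 7 had an unadjusted p under 0.05, and the estimates of all 13 were above 0, toward ovary. Epithelial genes did, with 8 of 13 higher on those arrays and 0 higher in ovary. Among all probe sets tested, 2.84% were called higher in ovary and 2.23% lower. Some called genes of the luteal and epithelial lists lay below the floor on all 3 arrays of the other tissue. Those entered the test through 1 tissue alone. On the pregnant arrays labelled myometrium, trophoblast genes were also read, as described beside STAR below. In whole tissue, fewer cells of a type and less RNA per cell cannot be told apart.

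SCARB1, the receptor that takes cholesterol from high-density lipoprotein, read 7072, 7466 and 11213 in non-pregnant, early pregnant and late pregnant ovary. On the arrays labelled myometrium it read 684.0, 884 and 387 in the same order. The lowest ovary array lay far above the highest other array, and the late pregnant stage held both the highest ovary and the lowest myometrium reading. SCARB1 averaged 8583 ± 2286 in ovary and 652 ± 250.4 in labelled myometrium (SD, n = 3 arrays of different stages), and its log2 difference, ovary minus myometrium, was 3.77 ± 0.38 (SE, limma adjusted p = 0.0118). Ovary over labelled myometrium was 10.3-fold at the non-pregnant, 8.44-fold at the early pregnant and 29.0-fold at the late pregnant stage.

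**Figure D1:**
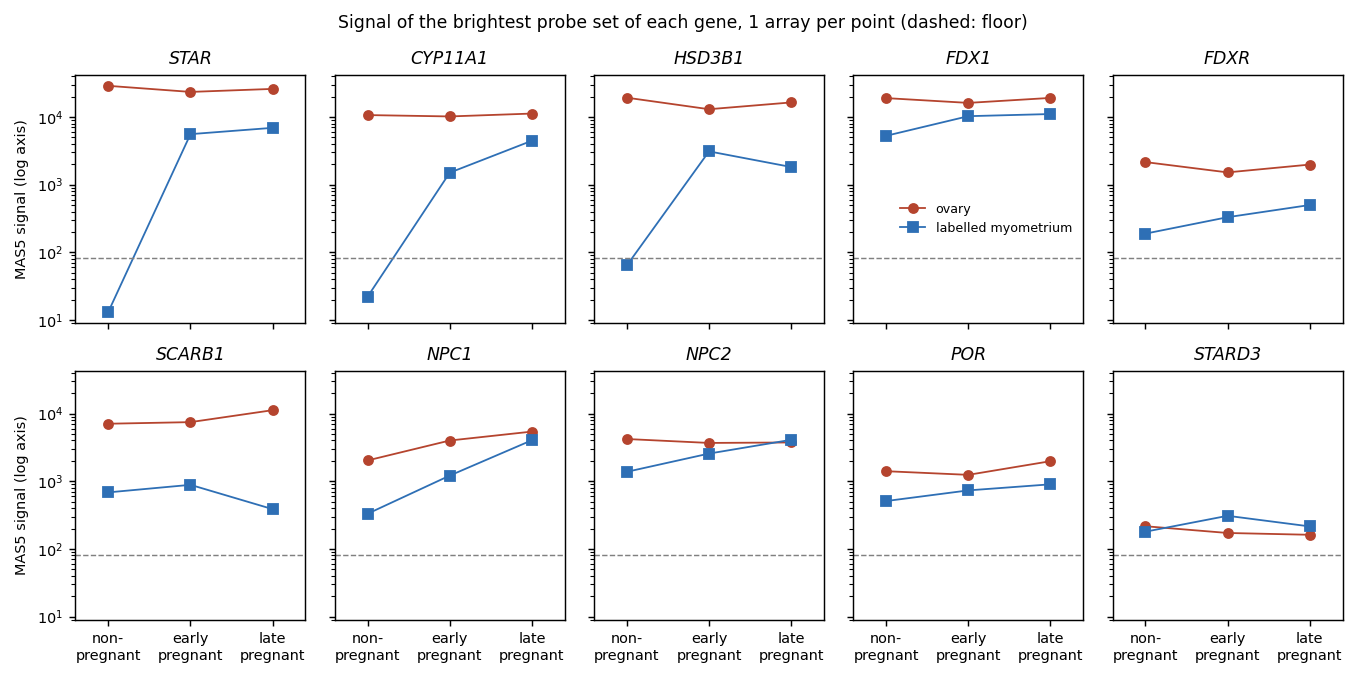
The signal of the brightest probe set of each of the 10 genes is plotted on a log axis against stage, with ovary as circles, labelled myometrium as squares and the floor of 81.7 dashed. STAR, CYP11A1 and HSD3B1 lie below the floor on the non-pregnant array labelled myometrium and above it on the pregnant ones.

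The lysosomal genes behaved differently from SCARB1. NPC1, the membrane protein that exports cholesterol from the late endosome and lysosome, read 2029, 3994 and 5412 in ovary by stage. In labelled myometrium it read 331, 1211 and 4033. In both tissues the non-pregnant array was lowest and the late pregnant array highest, and the late pregnant array labelled myometrium lay above 2 of the 3 ovary arrays. The log2 tissue difference was 1.59 (95% interval 0.54 to 2.63, limma adjusted p = 0.104), and it did not pass.

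NPC2, the soluble protein that hands cholesterol to NPC1, read 4203, 3677 and 3739 in ovary and 1378, 2561 and 4089 on the arrays labelled myometrium by its brightest probe set. Those readings overlapped, because the late pregnant array labelled myometrium exceeded 2 ovary arrays. Its log2 difference was 0.67 (95% interval -0.20 to 1.53, limma adjusted p = 0.337). Another NPC2 probe set gave 2015, 1842 and 1898 in ovary and 1473, 1194 and 1462 in labelled myometrium, with no overlap and no higher reading in pregnancy. A remaining NPC2 probe set lay below the floor on all 6 arrays, was not tested and carries no information on the gene.

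STARD3, a late endosomal protein with a cholesterol-binding START domain like that of STAR, read 216.0, 171.8 and 161.5 in ovary. On the arrays labelled myometrium it read 179.5, 308 and 214.8, so the groups overlapped. Its log2 difference was -0.33 (95% interval -1.15 to 0.49, limma adjusted p = 0.616). It was the only member whose estimate leaned toward labelled myometrium.

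STAR moves cholesterol to the inner mitochondrial membrane, the step that limits the rate of acute steroid production. By its brightest probe set it read 28846, 23450.5 and 25987 in ovary and 13.2, 5573 and 6907 on the arrays labelled myometrium. The 3 ovary arrays were alike, while labelled myometrium fell into a non-pregnant array below the floor and pregnant arrays far above it. Ovary over labelled myometrium was at least 353-fold at the non-pregnant stage, 4.21-fold at the early pregnant and 3.76-fold at the late pregnant stage. The log2 difference over the stages was 4.15 ± 1.28 (SE, limma adjusted p = 0.139). The other STAR probe set, with 16937, 12902 and 16280.2 in ovary and 1.7, 1156 and 1504 in labelled myometrium, passed at 4.87 ± 0.85 (limma adjusted p = 0.0368). Without the non-pregnant arrays the brightest probe set passed as well, with a smaller difference of 1.99 (limma adjusted p = 0.0321).

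Some cell type markers moved with STAR on the arrays labelled myometrium. Of 9 genes of the trophoblast and placenta list with a probe set, 2 lay above the floor on the non-pregnant, 9 on the early pregnant and 7 on the late pregnant array. Their summed signal was 1636, 61760.2 and 73561 in that order, against 7848 to 10107 in ovary, where the aromatase CYP19A3 made up most of it. PAG6, a pregnancy-associated glycoprotein of the trophoblast, read 75.2, 22022 and 28500.2 on the arrays labelled myometrium, and PLET1 read 49.1, 32821 and 31638. PAG6 and PLET1 made up most of both pregnant sums. Not all of the list followed STAR, since GATA2 read 886.8, 810.7 and 1243 there and CYP19A3 read 39.2, 131 and 19. In early over non-pregnant labelled myometrium, 5 of its 8 tested genes were 2-fold or more higher and 0 lower, against 8.76% and 10.3% of all probe sets measured. The summed uterine epithelium list, of 13 genes, was 49741, 139592 and 143914, against 3043 to 9068 in ovary. Its genes did not move as one, since 5 were 2-fold or more higher and 3 lower in early over non-pregnant labelled myometrium. Of all probe sets measured, 8.76% were higher and 10.3% lower. The secreted proteins SPP1, UABP-2 and UPTI and the phosphatase ACP5 read higher there, with SPP1 at 1297, 28071 and 28163. So did the junction protein CLDN4, at 1384, 4612 and 3933. The adhesion protein EPCAM read 10256, 10845 and 9667, and the keratin KRT8 read 9978, 4496 and 8210.5. The part of these cell types in the results for STAR, CYP11A1, HSD3B1 and the other genes that read higher on the pregnant arrays was not tested.

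Of the luteal and granulosa markers, 7 were measured in each stage comparison of labelled myometrium with the non-pregnant array, and 1, PTGFR, was 2-fold or more higher in each. In the early comparison 1 was 2-fold or more lower, OXT at 0.284-fold. In the late comparison 2 were, OXT at 0.165-fold or less and FST at 0.214-fold. Of all probe sets measured, 8.76% and 10.9% were higher and 10.3% and 12.6% lower. The summed signal over 14 genes was 42422 to 71837 in ovary and 2110, 2601 and 4251 by stage in labelled myometrium. PTGFR, the receptor for prostaglandin F2α, read 6982, 14853 and 16721 in ovary and 336.0, 1320 and 3436 in labelled myometrium, where it was 3.93-fold in early and 10.2-fold in late over non-pregnant tissue. It made up most of the late pregnant sum there. LHCGR, the luteinizing hormone receptor, INSL3, a hormone of theca and luteal cells, and the transcription factors NR5A1 and GATA4 lay below the floor on all 3 arrays labelled myometrium. LHCGR for example read 11.2, 25.1 and 41.4 there, against 2480, 3762 and 3309.5 in ovary.

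CYP11A1, the mitochondrial enzyme that cuts the side chain of cholesterol, had a single probe set. It read 10664, 10179.6 and 11227 in ovary and 22.1, 1502 and 4452 on the arrays labelled myometrium. The ovary readings were nearly level, and each stage was higher than the one before it in labelled myometrium without reaching the ovary. CYP11A1 was at least 131-fold higher in ovary at the non-pregnant, 6.78-fold at the early pregnant and 2.52-fold at the late pregnant stage. The log2 difference was 3.71 ± 1.02 (95% interval 1.17 to 6.24, limma adjusted p = 0.112), and it did not pass.

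The electron chain of CYP11A1 runs from FDXR, a reductase, to FDX1, the iron-sulfur protein adrenodoxin. FDXR read 2153, 1516 and 1978 in ovary and 188.7, 330.1 and 499.6 in labelled myometrium. The groups did not overlap. FDXR averaged 1882 ± 329 in ovary and 339 ± 155.7 in labelled myometrium (SD, n = 3 arrays of different stages), a log2 difference of 2.57 ± 0.37 (SE, limma adjusted p = 0.0231). Its 2 other probe sets leaned the same way, by 2.22 (limma adjusted p = 0.0182) and 1.79 (limma adjusted p = 0.0600).

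FDX1 was read on every array, including the non-pregnant array labelled myometrium on which CYP11A1 lay below the floor. It read 18995, 16141 and 19121 in ovary and 5268, 10270.2 and 11046 in labelled myometrium. The groups did not overlap, but the log2 difference of 1.10 (95% interval 0.45 to 1.74) did not pass (limma adjusted p = 0.0788). The dimmer FDX1 probe set gave 3467, 3380 and 4763 in ovary and 364.5, 1864 and 1763 in labelled myometrium, and it did not pass (1.85, limma adjusted p = 0.0918).

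POR, the reductase that supplies electrons to cytochrome P450 enzymes of the endoplasmic reticulum rather than to CYP11A1, read 1405.5, 1242 and 1976 in ovary. It read 509, 732 and 899.6 in labelled myometrium, with no overlap. The log2 difference of 1.12 (95% interval 0.49 to 1.75) did not pass (limma adjusted p = 0.0729).

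HSD3B1, which converts pregnenolone to progesterone, read 19261, 13015 and 16394 in ovary and 64.1, 3101 and 1822 in labelled myometrium by its brightest probe set. As with STAR and CYP11A1, only the non-pregnant array labelled myometrium lay below the floor. The log2 difference was 4.37 ± 1.07 (SE, limma adjusted p = 0.0831). The name of this probe set ends in x_at, by which Affymetrix marks probes that may also match other transcripts. The dimmer HSD3B1 probe set, without that mark, read 4132, 4854 and 7566 in ovary and 13.6, 457 and 806 in labelled myometrium, and it passed at 4.10 ± 0.51 (limma adjusted p = 0.0174).

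**Figure D2:**
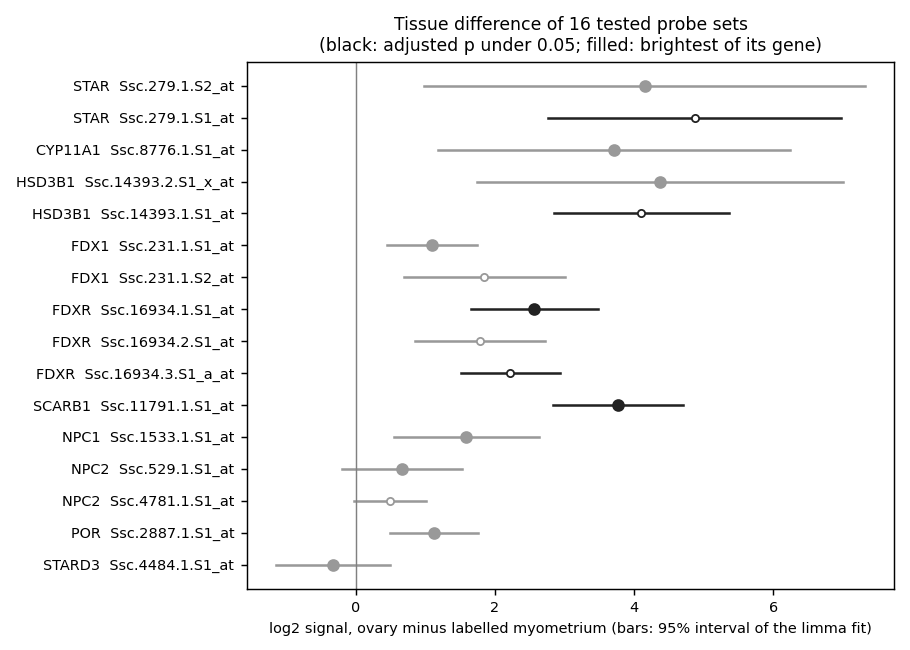
Points give the log2 signal difference, ovary minus labelled myometrium, of the 16 tested probe sets with the 95% interval of the limma fit, in black where the adjusted p was under 0.05 and filled where the probe set was the brightest of its gene. FDXR and SCARB1 passed by their brightest probe sets, and STAR and HSD3B1 passed by the dimmer ones, with differences of 4.87 and 4.10.

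Counted over the brightest probe sets, 2 of 10 genes, SCARB1 and FDXR, passed as higher in ovary, 0 passed as lower and 8 did not pass. Among all 15882 probe sets tested, 2.84% were called higher in ovary and 2.23% lower. At an unadjusted p under 0.05 there were 8 genes, against 21.9% of all probe sets. In 7 of 10 genes every ovary array lay above every array labelled myometrium, against 15.2% of all probe sets, and the exceptions were NPC1, NPC2 and STARD3. The median log2 difference was 2.08 for the members and 0.01 for all probe sets tested. With the next brightest probe set in place of the brightest, an alternative chosen after seeing the data, 4 genes passed. Leaving out both arrays of a stage left 1 gene past the threshold without the non-pregnant stage (STAR), 0 without the early pregnant stage and 1 without the late pregnant stage (SCARB1). Of all 15882 probe sets, 138, 0 and 109 passed as higher in ovary in these fits, and 260, 0 and 118 as lower. The fit has 1 array per tissue and stage and 2 residual degrees of freedom, its residual includes unequal stage changes in the tissues, and its p-values describe these arrays and not animals.

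Stage by stage, the median tissue gap of these genes was widest in non-pregnant sows, although that of SCARB1 was widest at the late pregnant stage. At the non-pregnant stage 9 of 10 genes were 2-fold or more higher in ovary, against 8.74% of the probe sets measured. At the early pregnant stage 6 were, against 12.4%, and at the late pregnant stage 6 were, against 12%. At no stage was a member 2-fold or more lower in ovary, against 8.67%, 10.6% and 12.6% of the probe sets measured. The median log2 difference of the members was 2.99, 1.90 and 1.23 in that order, and for all probe sets measured it was -0.05, 0.08 and 0.02. A difference between these stages was not tested, since each rests on a pair of arrays.

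Within ovary, stage ratios had 1 array on each side and no replicate check. In early over non-pregnant ovary 0 of 10 genes were 2-fold or more higher and 0 lower, against 2.45% and 2.15% of all probe sets measured. In late over non-pregnant ovary 1 gene, NPC1, was 2-fold or more higher at 2.67-fold and 0 were lower, against 2.92% and 3.65%. NPC1 was 1.97-fold higher in early than in non-pregnant ovary. Both comparisons share the non-pregnant array. In late over early pregnant ovary 0 genes passed 2-fold in either direction, against 1.5% and 2.71%.

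The smaller ovary ratios differed among the members. SCARB1 was 1.59-fold, POR 1.41-fold and CYP11A1 1.05-fold in late over non-pregnant ovary. STAR was 0.901-fold, FDXR 0.919-fold, NPC2 0.890-fold and STARD3 0.748-fold in the same comparison. HSD3B1 and FDXR had no settled direction there, since HSD3B1 was 0.851-fold by its brightest and 1.83-fold by its dimmer probe set, and FDXR 1.17-fold by its next brightest probe set. Nor did STAR, whose log2 ratio was -0.15 as deposited and 0.23 after quantile normalization. Centring on the median moved the median of all probe sets by 0.14 in this comparison. The GAPDH control ratios differed between those arrays too, at 1.51 and 3.07 in late and 2.33 and 4.90 in non-pregnant ovary, and their part was not tested. The actin ratios were 0.636 and 3.22 in late and 0.340 and 3.38 in non-pregnant ovary, so the controls gave no common direction.

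**Figure D3:**
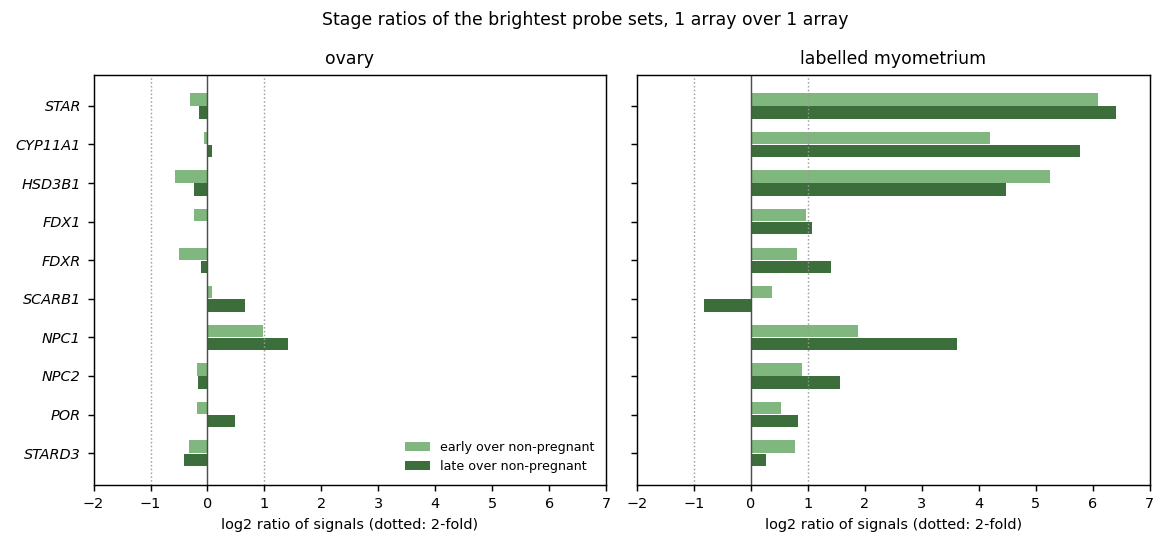
Bars give the log2 ratio of the early (light) and late (dark) pregnant array over the non-pregnant array for the brightest probe set of each gene, in ovary on the left and in labelled myometrium on the right, with 2-fold dotted. The bars of STAR, CYP11A1 and HSD3B1 in labelled myometrium are lower bounds, and SCARB1 is the only gene there with a late pregnant bar below 0.

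On the arrays labelled myometrium the stages lay further apart. In early over non-pregnant tissue 4 of 10 genes were 2-fold or more higher and 0 lower, against 8.76% and 10.3% of the probe sets measured. STAR was at least 68.2-fold, HSD3B1 at least 38.0-fold and CYP11A1 at least 18.4-fold higher, and NPC1 was 3.66-fold higher. The dimmer probe sets gave lower bounds of 14.1-fold for STAR and 5.59-fold for HSD3B1. FDX1 lay just under the limit at 1.95-fold and passed it at 5.11-fold by its dimmer probe set.

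In late over non-pregnant labelled myometrium 7 of 10 genes were 2-fold or more higher and 0 lower, against 10.9% and 12.6%. STAR was at least 84.5-fold, CYP11A1 at least 54.5-fold and HSD3B1 at least 22.3-fold higher. NPC1 was 12.2-fold, NPC2 2.97-fold, FDXR 2.65-fold and FDX1 2.10-fold higher. For NPC2 and FDXR this rests on the brightest probe set, because the next brightest gave 0.993-fold and 0.989-fold. POR at 1.77-fold, STARD3 at 1.20-fold and SCARB1 at 0.565-fold did not reach the limit.

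Between late and early pregnancy, 2 genes were 2-fold or more higher on the arrays labelled myometrium, against 5.87% of the probe sets measured, and 1 was lower, against 5.62%. NPC1 was 3.33-fold and CYP11A1 2.96-fold higher in late pregnancy. STAR was 1.24-fold and FDX1 1.08-fold. SCARB1 was lower, at 0.437-fold. HSD3B1 was 0.588-fold by its brightest and 1.76-fold by its dimmer probe set, so the arrays give it no settled direction between these stages.

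No member had a stage change shared by both tissues that passed the test. By limma, 0 of 10 passed in each of the 3 stage contrasts, as did 0% of all probe sets. NPC1 came closest, with a shared log2 change of 2.51 ± 0.52 in late over non-pregnant tissue (SE, unadjusted p = 0.00321 by limma, adjusted p = 0.711) and 1.43 ± 0.52 in early over non-pregnant tissue (unadjusted p = 0.0348 by limma, adjusted p = 0.822). By the brightest probe sets it was the only gene of the 10 at an unadjusted p under 0.05 in either contrast, and there was none between late and early pregnancy. Of all probe sets, 6.07%, 4.32% and 1.64% lay under that limit in these contrasts.

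Of the 5 members with several probe sets, 4 had probe sets that tracked each other across the arrays. Over the 6 arrays, as a description, the brightest and the next probe set correlated at 0.96 for STAR, 0.95 for HSD3B1 and 0.98 for FDX1 on the log2 scale. The further FDXR probe sets correlated with the brightest at 0.95 and 0.94. For NPC2 the correlation was 0.52, and the stage ratios of its probe sets differed as given above. A high r over both tissues did not mean like stage ratios. Those of the HSD3B1 and FDXR probe sets also differed in direction in labelled myometrium, as given above.

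**Figure D4:**
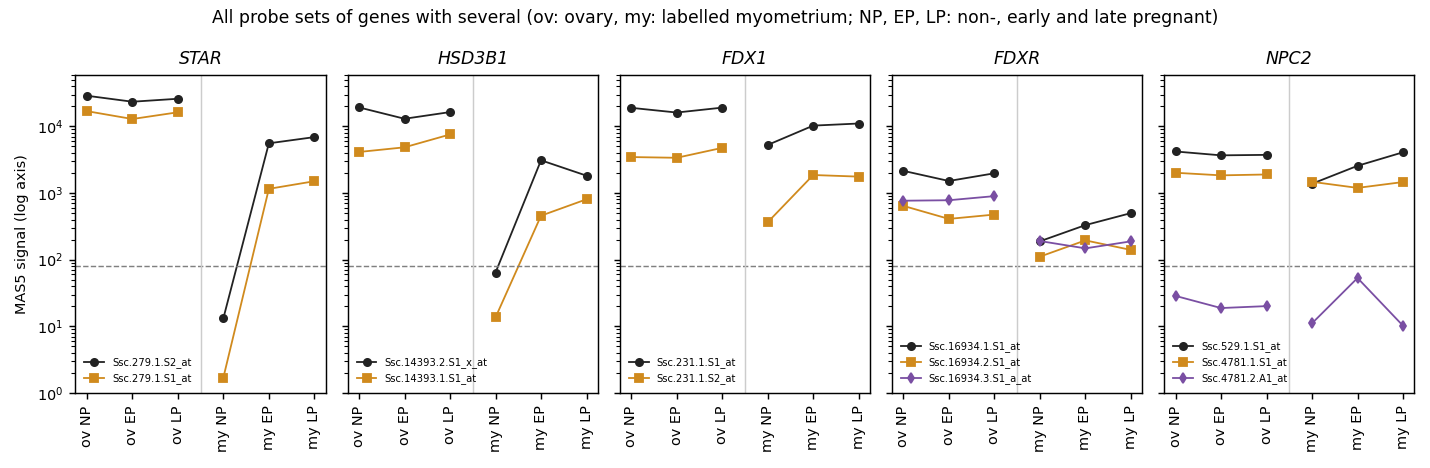
The signal of every probe set of the 5 genes with several is plotted on a log axis by array, ovary left and labelled myometrium right of the grey line, with the floor of 81.7 dashed. The STAR probe sets run in parallel, the HSD3B1 probe sets part between early and late pregnant labelled myometrium, and a NPC2 probe set stays below the floor throughout.

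Across the 6 arrays the named gene closest to STAR among 5672 was CYP11A1 (r = 0.99), followed by CCNDBP1 and by HSD3B1 (r = 0.98). Closest to CYP11A1 were MGP, STAR and MFAP2 (r = 0.99, 0.99 and 0.98). HSD3B1 was most like REXO2, GATA6 and FAM43A (all at r = 0.99), and STAR ranked as the fifth. SCARB1 was most like PPAT and MSRB2 (both at r = 0.996) and CFL2 (r = 0.99), while its r with STAR was 0.66. With 6 points from 2 tissues such values are a description of likeness in these arrays only.

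Among the genes that regulate this pathway, LHCGR and the transcription factors NR5A1, NR5A2 and GATA4 were higher in ovary. Of 11 tested regulators 4 passed in that direction, 0 in the other and 7 did not pass, with a median log2 difference of 0.58. Among all probe sets tested, 2.84% were called higher in ovary and 2.23% lower, shares that also stand beside the list counts below. LHCGR, NR5A1 and GATA4 entered the test through ovary alone, being below the floor on all arrays labelled myometrium. All 4 are also among the luteal and granulosa genes counted above, so they are no separate evidence. NR5A2, a nuclear receptor that drives steroid enzyme genes in luteal cells, read 5741, 3572 and 6325.5 in ovary and 90.5, 97.9 and 27.7 in labelled myometrium, so it stayed near or below the floor on the arrays where STAR and CYP11A1 were read. GATA6, which regulates steroid enzyme genes together with GATA4, read 1294, 1361 and 1228 in ovary and 51.8, 504 and 314 in labelled myometrium. It was thus read on the pregnant arrays there, and its tissue difference did not pass (2.46, limma adjusted p = 0.0617).

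Among genes for lipoprotein uptake and efflux, 1 of 9 tested, the lipoprotein receptor LRP8, was higher in ovary, 0 were lower and 8 did not pass. LRP8 read 5140, 1738 and 2546 in ovary and 199.4, 364 and 138.8 in labelled myometrium (log2 difference 3.71, limma adjusted p = 0.0193). Like SCARB1, it had no overlap between tissues and its lowest reading on the late pregnant array labelled myometrium. PDZK1, a scaffold protein that holds SCARB1 at the membrane of liver cells in mice, read 83.6, 29.9 and 23.2 in ovary and 1851, 116.6 and 25.1 in labelled myometrium, and it did not pass (limma adjusted p = 0.335). The median log2 difference of the list was 0.40.

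Of 11 tested genes of cholesterol trafficking, 1, the outer mitochondrial membrane protein TSPO, was lower in ovary, 0 were higher and 10 did not pass. TSPO read 925, 782 and 642.5 in ovary and 3470.4, 1495 and 1700.1 in labelled myometrium, with its highest reading on the array where STAR lay below the floor. The log2 difference was -1.42 (limma adjusted p = 0.0470). This call held in 3 of 12 alternatives, with adjusted p from 0.0422 to 0.264. The cholesterol trafficking list had a median of -0.18. Of 4 tested genes of cholesterol ester storage, 1, the carboxylesterase CES1, was lower in ovary (limma adjusted p = 0.0219) and 3 did not pass. CES1 lay below the floor on all 3 ovary arrays, with 39.1, 69.8 and 8.4, and read 618, 801 and 286 in labelled myometrium. It thus entered the test through labelled myometrium alone, and its call held in 8 of 12 alternatives.

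Enzymes further along the steroid pathway were mixed. Of 8 tested, AKR1CL1, an aldo-keto reductase, and HSD17B1, which reduces oestrone to oestradiol, were higher in ovary, 0 were lower and 6 did not pass, with a median log2 difference of -0.44. AKR1CL1 read 15383, 12465.5 and 15060.1 in ovary and 27.7, 552.5 and 318 in labelled myometrium, so its non-pregnant reading there lay below the floor as for HSD3B1. HSD17B1 read 7505, 4560 and 12061 in ovary and 66.1, 544.6 and 14 in labelled myometrium. Its non-pregnant and late pregnant readings there lay below the floor, so it met the filter through ovary. The HSD17B1 call held in 8 of 12 alternatives, with limma adjusted p from 0.0065 to 0.291. CYP17A1, which turns progestins into androgens, read 178.9, 138.0 and 147.3 in ovary and 6.4, 218.1 and 92.4 in labelled myometrium. In early over non-pregnant labelled myometrium 7 of the 8 were 2-fold or more higher and 0 lower, against 8.76% and 10.3% of the probe sets measured. Among the 7 were the oestradiol-inactivating HSD17B2 at 118.7-fold or more and the cortisol-inactivating HSD11B2 at 5.53-fold.

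**Figure D5:**
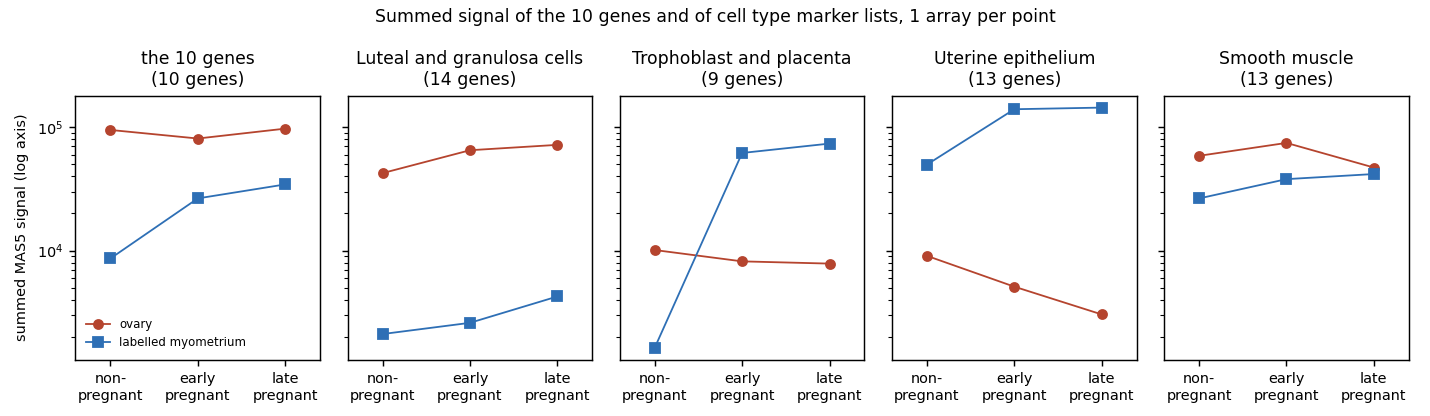
Summed signals of the 10 genes and of 4 marker lists are plotted on a log axis against stage, with ovary as circles and labelled myometrium as squares. On the arrays labelled myometrium the sum of the 10 genes was 8637, 26472 and 34349 from the non-pregnant to the late pregnant stage, the trophoblast sum was 1636, 61760.2 and 73561, and the luteal sum stayed at or under 4251.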

How the data were processed

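Total RNA of sow ovary and labelled myometrium was hybridised to 6 Affymetrix arrays, 1 per tissue and stage. The deposited intensity values are MAS5 signals made by the authors, per the submitters' processing notes; the version and the settings of MAS5 were not found among the labels. Scaling hides changes in total RNA. Of 24123 probe sets, 124 controls were left out. Platform annotation gave 10069 of the remaining 23999 a single symbol, 198 several and 13732 none; all 10 member symbols matched RefSeq by gene identifier. No genome positions or sequences were used here.

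Signals were raised to 81.7 and log2 taken. In R 4.3.3, limma 3.58.1 fitted tissue and stage additively, with an intensity trend, to the 15882 probe sets with 2 or more arrays over the floor. Benjamini-Hochberg adjustment ran over all of them, with a threshold of 0.05. Pairs of arrays were compared by fold without a test. The number of arrays limits precision.

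Each gene was represented by its brightest probe set. Named were all members, list genes that passed or were 2-fold or more apart (at most 6 per pathway list), and the 3 genes most like each of STAR, CYP11A1, HSD3B1 and SCARB1. The members and lists were chosen with earlier results of these data known. NR5A2, GATA6, PDZK1, PAG6, PLET1, GATA2, CYP19A3, PTGFR, SPP1, UABP-2, UPTI, ACP5, CLDN4, EPCAM, KRT8, CYB5A and CYP17A1 were picked from lists for their values. Between tissues, the red blood cell (3 tested), endothelium (4), macrophage (5) and stroma (3) lists gave 1 call, LUM, lower in ovary. Among all probe sets tested, 2.84% were called higher in ovary and 2.23% lower. The adipocyte list had 0 genes tested and could give no call.

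Alternatives were other floors, a pseudocount of 16, quantile normalization, median centring, averaged or next brightest probe sets, no filter, no trend, no stage block, and leaving out a stage.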

Additional observations from a re-analysis of the deposited data

Results flagged for a closer look

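In these results a gene moved in opposite directions in the tissues under the same stage contrast, by at least 0.5 on the log2 scale on each side. Each rests on 1 array per side, and the difference between the tissues was not tested. SCARB1, the lipoprotein receptor, had log2 ratios of 0.67 in ovary and -0.82 in labelled myometrium between late and non-pregnant arrays. Between late and early pregnant arrays its ratios were 0.59 in ovary and -1.19 in labelled myometrium. HSD3B1 had ratios of -0.57 in ovary and 5.25 or more in labelled myometrium between early and non-pregnant arrays, but its dimmer probe set leaned the same way in both tissues, at 0.23 and at 2.48 or more. FDXR, the adrenodoxin reductase, had ratios of -0.51 in ovary and 0.81 in labelled myometrium in that contrast, and of its further probe sets one gave -0.65 and 0.81 and the other 0.02 and -0.37.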

How the results depend on the processing

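The tissue differences of 9 members kept their direction in all 13 alternatives. That of STARD3 stayed below 0 in the 12 that gave it a value. With no filter on low signals 0 of all 23999 probe sets passed by limma in either direction, and so 0 members and 0 pathway genes. There 2782 probe sets had an unadjusted p under 0.05. Leaving out a stage gave 0 to 1 members higher in ovary, 0 to 4 pathway genes higher (8 with all arrays) and 0 to 1 lower (2 with all arrays). Without the early pregnant arrays 0 of all 15882 probe sets passed by limma, with 1790 at an unadjusted p under 0.05. Such fits hold 4 arrays. SCARB1 had an adjusted p of 0.0525 without the non-pregnant and 0.123 without the early pregnant arrays. FDXR had 0.0513, 0.194 and 0.0574 without the non-pregnant, early and late pregnant arrays. With the next brightest probe sets 4 members passed, and the late over non-pregnant ratio in labelled myometrium turned to -0.016 for FDXR and to -0.0106 for NPC2. Pathway genes lower in ovary, CES1 and TSPO, numbered 0 with the floor at the 60th percentile. They numbered 1, CES1, with median centring, averaged probe sets, no intensity trend or no stage block. With median centring, 1 member, NPC1, was 2-fold or more higher in early over non-pregnant ovary. Its log2 ratio lay just under that limit as deposited, at 0.98, and reached at most 1.004 in the alternatives. This centring moved the median stage ratio of all probe sets by at most 0.14. Bounds depend on the floor: STAR in early over non-pregnant labelled myometrium was 4.50 to 7.37 on the log2 scale with the higher and lower floor. The fit pairs the tissues by stage, and without the stage term 2 members again passed as higher in ovary.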

Other observations

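Genes that make cholesterol were measured beside those that import it. Of 13 tested genes of cholesterol synthesis and its control, 1, the sterol sensor partner SCAP, was higher in ovary, 0 were lower and 12 did not pass, with a median log2 difference of 0.53. SCAP, which escorts sterol-responsive transcription factors out of the endoplasmic reticulum, read 2357, 1744 and 2242.5 in ovary in order of stage and 517.5, 466 and 681 in labelled myometrium (log2 difference 1.94, limma adjusted p = 0.0171). HMGCS1, an early enzyme of the pathway, read 6912, 7399 and 8267.5 in ovary and 1649, 7174 and 4262 in labelled myometrium. TM7SF2, a sterol reductase, read 1582, 887 and 1134.5 in ovary and 103.7, 489.9 and 1521 in labelled myometrium. In both early over non-pregnant and late over non-pregnant labelled myometrium, which share the non-pregnant array, 6 of 13 genes were 2-fold or more higher, and 0 and 1 were lower. Of all probe sets measured, 8.76% and 10.9% were higher and 10.3% and 12.6% lower.

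Of 8 tested partners of electron transfer and suppliers of NADPH, 0 passed between tissues by limma in either direction and 1, CYB5A, had an unadjusted p under 0.05. ME1, the malic enzyme that makes NADPH in the cytosol, read 1777, 1852 and 2411 in ovary and 109.4, 1459 and 3129 in labelled myometrium. Its tissue difference did not pass (limma adjusted p = 0.413), and the groups overlapped. CYB5A, cytochrome b5, read 19935, 11248 and 12457 in ovary and 8446, 8298 and 5146 in labelled myometrium, with no overlap (log2 difference 0.98, limma adjusted p = 0.0641).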
